A study of Mus musculus with 6 samples.

Results

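The livers of mice given esculetin or its vehicle were compared here for 8 transporter genes whose products take up organic anions, bile acids, drugs and prostaglandins from blood. These genes were chosen by name, from a list of sinusoidal uptake transporters, and are Slco1a1, Slco1a4, Slco1b2, Slco2a1, Slco2b1, Slc10a1, Slc22a7 and Slc22a30. All 8 were found among the 55357 genes of the count table and all 8 had enough reads to be tested. The study called a gene changed when it differed by more than 1.5-fold at p below 0.05, and its text does not say whether p was adjusted. Applied here to unadjusted p-values of edgeR's quasi-likelihood test, this rule called 0 of the 8 between esculetin and vehicle. By the same rule 452 of 14433 tested genes, or 3.13%, were called. After Benjamini-Hochberg adjustment of edgeR's quasi-likelihood test, 0 of the 8 and 6 of all genes tested, or 0.0416%, stayed below 0.05. For 7 of the 8 the 95% interval of the difference lay within a 1.5-fold change in either direction, and Slco1a4 was the exception.

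Blood reaches hepatocytes through the sinusoids, and carriers in the sinusoidal membrane bring solutes into the cell before enzymes conjugate them and efflux pumps move them to bile or back to blood. The organic anion transporting polypeptides, encoded by the Slco genes, carry bilirubin, steroid and thyroid hormone conjugates, bile acids and many drugs without using the sodium gradient. The sodium taurocholate cotransporting polypeptide, encoded by Slc10a1, uses the sodium gradient to recover conjugated bile acids from portal blood. The Slc22 family holds organic anion transporters, such as the one encoded by Slc22a7, and organic cation transporters. The 8 genes include no member of the classic cation transporters.

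The mice were wild-type male C57BL6/J mice of 8 to 9 weeks. Both groups were gavaged daily for 7 days and ate a control diet with 10% of kcal from fat for 4 days and then a high-fat diet with 60% for 3 days, so that no library represents mice kept on the control diet. The vehicle group received 2.5% Tween-80 and the esculetin group received esculetin, a coumarin derivative, at a dose that the sample names put at 180 mg/kg/d and the treatment field at 90 mg/kg/d. Each group had 3 libraries, each pooled from the livers of 2 mice, so the p-values measure the spread between pools. Total counts were 27957713 to 31889710 per vehicle library and 32883985 to 34920922 per esculetin library. At these depths 3 counts correspond to 0.0865 to 0.109 CPM (counts divided by library size after TMM scaling), a limit that covers counting error only. The 8 genes had 967 to 73291 counts in every library, far above this limit. Hepatocyte transcripts dominated, with albumin (Alb) at 60450.1 CPM in vehicle and 58356.6 CPM in esculetin livers on average. Among 10 marker genes of the sinusoidal endothelium and 8 of Kupffer cells, 0 passed the study's thresholds, while 1 of 8 stellate cell genes (Des, higher) and 1 of 5 cholangiocyte genes tested (Spp1, lower) did. Of the Kupffer cell genes, 1 of 8 had a positive log2 fold change, with a median of -0.11. Among low-level markers, 1 of 6 lymphocyte genes tested (Cd79a, log2 fold change 1.12) and 1 of 2 neutrophil genes tested (S100a9, 0.99) were called higher, while 0 of 7 hepatocyte genes, 0 of 1 adipocyte gene and 0 of 1 pancreatic acinar gene tested were called. The part of these cell types in the transporter values was not tested.

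Where sequences of these genes resemble each other, the counts depend on how reads were assigned, which is not given in the sources used here. Slc22a30 lies on chromosome 19 (GRCm39, chr19:8312731-8382475, minus strand) near Slc22a28 (chr19:8039327-8109346), and the 1656 coding bases of their main transcripts were 98.79% identical, with an identical run of 431 bases. Of all windows of 150 bases, the read length, in Slc22a30 transcripts, 11.4% occurred unchanged in another gene, Slc22a28 or Slc22a29. A stretch of 60 coding bases with as many differences as any such stretch within an exon is printed to show how little separates Slc22a30 from Slc22a28 (capitals mark the 2 bases that differ; exon 4 in both; chr19:8363865-8363924 and chr19:8094210-8094269, minus strand).
Slc22a30: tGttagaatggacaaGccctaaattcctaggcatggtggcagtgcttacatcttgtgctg
Slc22a28: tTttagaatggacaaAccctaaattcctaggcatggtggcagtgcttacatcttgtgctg
The neighbours Slco1a1 (chr6:141853007-141892690, minus strand) and Slco1a4 (chr6:141751165-141802036, minus strand) were 86.67% identical over 2010 coding bases, and 0% of their windows of 150 bases occurred in another gene. Their most different stretch of 60 coding bases within an exon, at chr6:141868741-141868800 and chr6:141763493-141763552, is printed because the values of these genes are compared below (capitals mark the 22 bases that differ).
Slco1a1: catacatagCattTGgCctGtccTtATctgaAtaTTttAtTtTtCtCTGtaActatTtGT
Slco1a4: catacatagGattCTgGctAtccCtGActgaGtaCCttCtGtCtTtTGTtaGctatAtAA
Slco1b2 (chr6:141575179-141633546, plus strand), Slco2a1 (chr9:102865911-102973201, plus strand) and Slc22a7 (chr17:46743044-46749407, minus strand) also shared 0% of such windows. Slc10a1 (chr12:80996372-81015479, minus strand) shared 2.89% with Srsf5 and Slco2b1 (chr7:99306783-99360547, minus strand) shared 2.89% with the long noncoding RNA Gm15635, both on the opposite strand. All 8 genes are annotated as protein-coding.

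To rank the genes by level, counts were divided by summed exon length and scaled to a common sum per library (TPM, a length-normalised unit). Slco1b2, the mouse counterpart of the human hepatic OATP1B carriers, stood first with 974 ± 21.4 TPM in vehicle livers (mean ± SD, n = 3 libraries). Slc10a1 followed with 717 ± 18.6 TPM and Slco1a1 with 710.0 ± 25.6 TPM, and the libraries of these 2 genes overlapped, so their order was not resolved. Slc22a30 had 245 ± 13.1 TPM. Slc22a7 had 73.5 ± 17.1 TPM and Slco2b1 had 62.3 ± 6.30 TPM, again with overlapping libraries. Slco1a4 had 16.2 ± 5.77 TPM and Slco2a1 had 14.0 ± 1.54 TPM in vehicle livers, where their libraries overlapped. In esculetin livers the order was the same, with means of 1007, 666, 640, 199, 68.8, 62.2, 21.9 and 12.1 TPM in the sequence just given, and there the libraries of Slco1a4 and Slco2a1 did not overlap. Slco1b2, Slc10a1 and Slco1a1 together made up 85.4% ± 0.734 of the summed TPM of the 8 genes in vehicle livers and 86.4% ± 0.491 in esculetin livers (mean ± SD, n = 3).

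**Figure D1:**
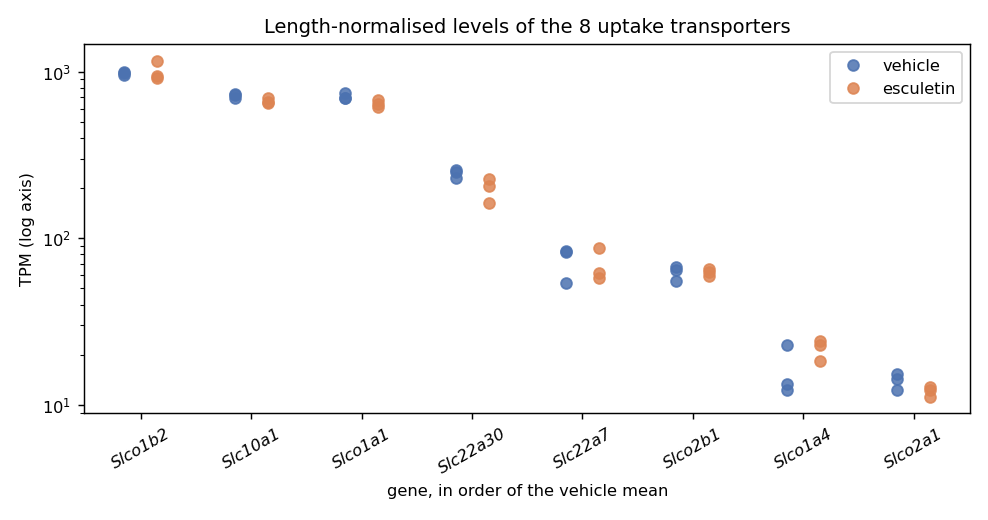
Length-normalised levels (TPM, log axis) of the 8 uptake transporters in each vehicle and esculetin library, in order of the vehicle mean. Slco1b2 is highest at 951 to 992 TPM in vehicle livers, and Slco1a4 and Slco2a1 are lowest.

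The carriers of bile acids and organic anions with the highest levels were within narrow limits of their vehicle values. Slc10a1, through which conjugated bile acids enter from portal blood, was measured at 705, 680.3 and 749 CPM in vehicle libraries 1 to 3 and at 665, 672 and 679 CPM in the esculetin libraries. Every esculetin library was below every vehicle library, although the highest esculetin and the lowest vehicle library were close. The log2 fold change of Slc10a1 was -0.083 with a 95% interval of -0.25 to 0.082, a difference that did not pass the test (adjusted p = 0.707, edgeR's quasi-likelihood test).

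Slco1b2 had 1831, 1872 and 1886 CPM in vehicle and 1827, 1859.98 and 2188 CPM in esculetin libraries. The third esculetin library was the highest of the 6, and the other two lay among or just below the vehicle libraries. Its log2 fold change was 0.072 (95% interval -0.13 to 0.27, adjusted p = 0.798, same test).

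Slco1a1 encodes an anion carrier whose mRNA is known to be more abundant in livers of male than of female mice. It had 1062, 1081 and 1203 CPM in vehicle and 1040.5, 988 and 1039 CPM in esculetin libraries. The groups did not overlap, with the esculetin libraries lower, and the log2 fold change was -0.13 (95% interval -0.31 to 0.053, adjusted p = 0.581, same test). In fold terms this interval ran from 0.809 to 1.04. Groups without overlap were seen in these 2 of the 8 genes, Slc10a1 and Slco1a1, both lower, and in 17.4% of all genes tested, 8.24% with esculetin lower. An exact permutation test of 3 against 3 libraries cannot give a two-sided p-value under 0.1, which is what both genes reached.

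Slco1a1 was set beside 15 other genes known to be higher in male mouse liver, from a list chosen with earlier results of these data known. Of these 15, 7 passed the study's thresholds with lower levels in esculetin livers and 0 with higher levels, against 1.76% of all genes tested that were called lower. Their median log2 fold change was -0.53, against -0.0080 for all genes tested and -0.13 for Slco1a1. Those called were Serpina1e, Selenbp2, Cyp7b1, C6, Cyp4a12a, Elovl3 and Ugt2b38, with log2 fold changes from -1.13 for Serpina1e to -0.61 for Ugt2b38. Vehicle library 1 stood apart in this list, as the lowest vehicle library for 12 of the 15 genes. The groups did not overlap for 3 of the 7 called genes, Elovl3, C6 and Serpina1e, while for the other 4 vehicle library 1 lay at or below the highest esculetin library and only vehicle libraries 2 and 3 lay above all esculetin libraries. Without vehicle library 1, a count added after the data were seen, 7 of the 15 were called lower, with a median log2 fold change of -0.66. That library was the lowest of its group for 12 of the 15, so its removal lowers their fold changes by construction. Without each of the other libraries in turn, 5 to 7 of the 15 were called lower. The log2 fold change of Slco1a1 without vehicle library 1 was -0.16 (adjusted p = 0.581, edgeR's quasi-likelihood test). That library was also the lowest vehicle library for Slco1a1, so the same limit holds for this value. Mup7, which encodes a major urinary protein, was the highest of the 15, at 15261 ± 5370 CPM in vehicle and 10539.9 ± 4499.9 CPM in esculetin livers (SD, n = 3, adjusted p = 0.558, same test). Of 17 genes known to be higher in female liver, 6 had enough reads to be tested and 2 of these, Cyp2a4 and Cyp2b9, were called higher. These averaged 0.217 and 0.117 CPM in vehicle livers and could pass the filter on low counts mainly through the esculetin libraries, so the count supports nothing. Cyp17a1, the highest of the 6 in vehicle livers, had 13.5 ± 11.1 CPM in vehicle and 13.7 ± 5.28 CPM in esculetin livers. Abcd2, the highest in esculetin livers, had 12.6 ± 5.80 CPM in vehicle and 16.2 ± 2.60 CPM in esculetin livers. The count was also 2 when any library but vehicle library 1 was left out. Without vehicle library 1 it was 5, and since that library had the highest vehicle levels of Cyp17a1, Acot3 and Abcd2, its removal raises these genes by construction.

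**Figure D2:**
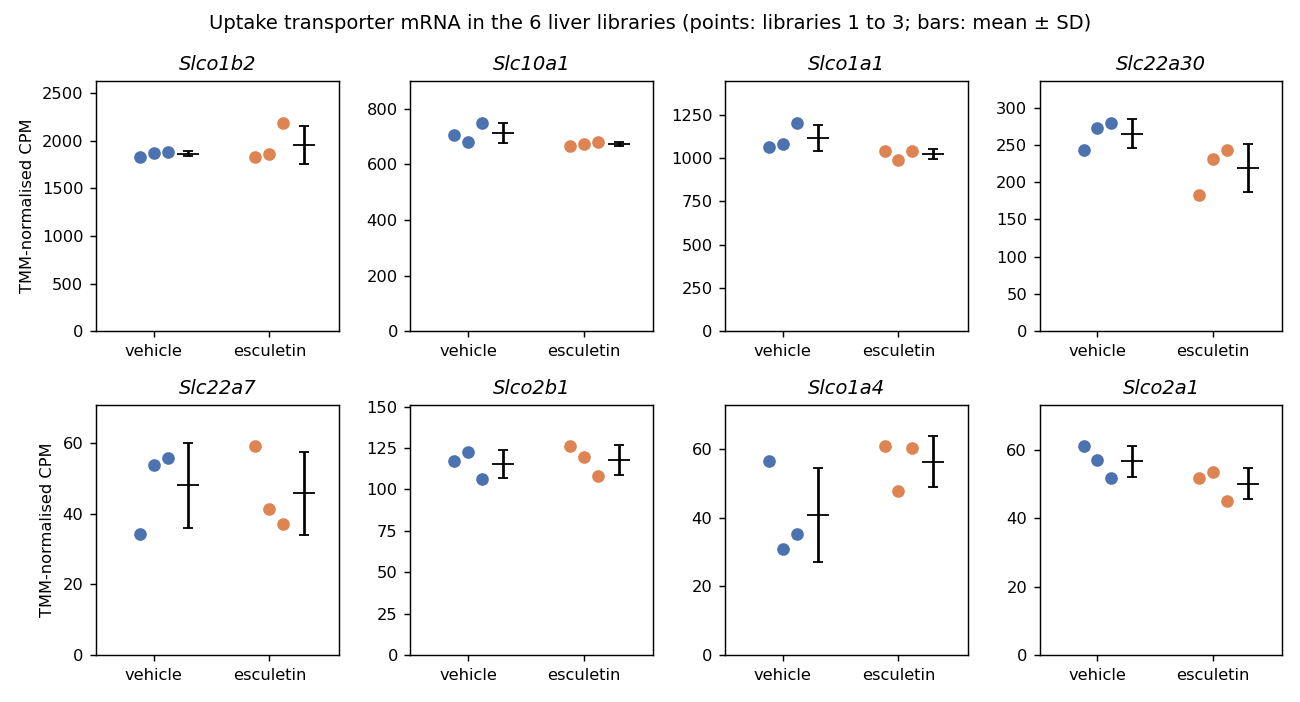
TMM-normalised CPM of each uptake transporter in the 3 vehicle and 3 esculetin libraries (points), with the mean and SD of each group beside them, on axes that start at 0. The groups do not overlap for Slc10a1 and Slco1a1, by small margins, and the high vehicle library of Slco1a4, 56.6 CPM, stands among the esculetin libraries.

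Slco1a4 gave the largest difference among the 8 genes. It encodes an anion carrier that transports cardiac glycosides and bile acids and is a known target of the pregnane X receptor in mouse liver. Its values were 56.6, 30.8 and 35.3 CPM in vehicle and 60.8, 47.8 and 60.4 CPM in esculetin libraries. Vehicle library 1 lay between esculetin libraries 2 and 3, so the groups overlapped. The log2 fold change was 0.46, or 1.38-fold, with a 95% interval from 1.01-fold to 1.88-fold. The unadjusted p-value was 0.0437 and the adjusted p-value 0.400 in edgeR's quasi-likelihood test, and the fold change was under the study's threshold of 1.5. The 8 genes held 2 with an unadjusted p-value under 0.05, Slco1a4 (higher) and Slc22a30 (lower), against 11.9% of all genes tested, of which 6.53% were higher and 5.32% lower.

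The size of the Slco1a4 difference depended on single libraries. Without vehicle library 1 the log2 fold change was 0.77, which passed the study's thresholds (unadjusted p = 0.000209, adjusted p = 0.0548, same test). Without vehicle library 2 it was 0.30 (unadjusted p = 0.164), and without vehicle library 3, esculetin library 1 or esculetin library 3 the unadjusted p-value was also over 0.05. When no genes were left out for low counts its adjusted p-value was 0.00663, at a log2 fold change of 0.47. The ratio of Slco1a1 to Slco1a4 in TPM was 30.3 to 56.5 in vehicle and 27.6 to 33.3 in esculetin libraries, with vehicle library 1 the lowest of its group and esculetin library 2 the highest of its group. This ratio was lower in esculetin libraries 1 and 3 than in any vehicle library, while esculetin library 2 lay above vehicle library 1.

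The remaining organic anion transporting polypeptides differed little. Slco2b1, which carries steroid sulfates and several drugs, had 117, 123 and 106 CPM in vehicle and 126, 119 and 108 CPM in esculetin libraries, and the ranges of the groups overlapped. Its log2 fold change was 0.029 (95% interval -0.17 to 0.23, adjusted p = 0.933, edgeR's quasi-likelihood test). Slco2a1 encodes the prostaglandin transporter, which in many organs is found in the endothelium. It had 61.1, 57.1 and 52.0 CPM in vehicle and 52.0, 53.7 and 45.0 CPM in esculetin libraries. The groups overlapped, as the lowest vehicle library lay level with esculetin library 1 and below esculetin library 2. The log2 fold change was -0.18 (95% interval -0.39 to 0.035, adjusted p = 0.499, same test). In bulk liver, fewer cells of a type and less RNA per cell cannot be told apart. The 10 markers of the sinusoidal endothelium, listed with Stab2, Lyve1 and Kdr, summed to 267 to 321 CPM in vehicle and 281 to 324 CPM in esculetin libraries, with none at 0 and 5 of 10 with positive log2 fold changes. The part of endothelial content in the Slco2a1 value was not tested.

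Slc22a7 encodes an organic anion transporter of the sinusoidal membrane. Its libraries varied widely, with 34.2, 53.8 and 55.9 CPM in vehicle and 59.0, 41.2 and 37.0 CPM in esculetin libraries. Each group held values at both ends of the range, with coefficients of variation of 24.9% and 25.5%. The log2 fold change was -0.069 (95% interval -0.53 to 0.39, adjusted p = 0.934, same test), or from 0.693-fold to 1.31-fold, the widest interval of the 8 genes on the log2 scale.

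Slc22a30, an Slc22 family member grouped with the organic anion transporters, had 243, 272 and 279.7 CPM in vehicle and 183, 230.5 and 244 CPM in esculetin libraries. Esculetin library 1 was the lowest of the 6, and esculetin library 3 lay level with vehicle library 1. The log2 fold change was -0.28 (95% interval -0.53 to -0.026, unadjusted p = 0.0338, adjusted p = 0.375, same test), and without esculetin library 1 it was -0.16 (unadjusted p = 0.121), while without vehicle library 2 or 3 it was -0.25 or -0.23, also with p over 0.05. This value depends in part on how reads shared with its near-identical paralog Slc22a28, whose stretch is printed above, were assigned. Of its windows of 150 bases, 11.4% occurred in Slc22a28 or Slc22a29. Slc22a28 had 19.0, 28.9 and 25.7 CPM in vehicle and 11.6, 14.9 and 15.4 CPM in esculetin libraries, lower in every esculetin library than in any vehicle library. It passed the study's thresholds, with a log2 fold change of -0.81 and a standard error of 0.16 (unadjusted p = 0.000633, adjusted p = 0.136, same test). The counts assigned to Slc22a28 were 9.20% ± 1.41 of those assigned to Slc22a30 in vehicle and 6.38% ± 0.0683 in esculetin livers (mean ± SD, n = 3). With the counts of both genes added together, the log2 fold change was -0.32 (unadjusted p = 0.0207, adjusted p = 0.324, same test).

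The other genes of the 3 families were examined by fixed lists. Of 12 further Slco genes, 2 had enough reads to be tested, Slco3a1 and Slco1a8, and 0 were called. Slco3a1, with 2.45 ± 0.757 CPM in vehicle and 2.88 ± 0.642 CPM in esculetin livers, was the most highly expressed of these, well below each of the 5 Slco genes described above. Of 22 further Slc22 genes examined, 12 were tested, of which 1 was called higher (Slc22a26) and 1 lower (Slc22a28). Slc22a26 had 90 counts over the 6 libraries, with 0 in 1 vehicle library, and its log2 fold change was 2.13 with an interval from 0.34 to 3.92. Of 6 further Slc10 genes, 5 were tested and 1, Slc10a6, with 82 counts over the 6 libraries, was called higher (log2 fold change 1.44, interval 0.25 to 2.62). Slc22a26 and Slc10a6 averaged 0.168 and 0.228 CPM in vehicle livers and could pass the filter on low counts mainly through the esculetin libraries, so these calls support nothing about their families. Slc10a2, which encodes the apical bile acid carrier of ileum and bile ducts, had 70.0 ± 11.0 CPM in vehicle and 79.5 ± 23.1 CPM in esculetin livers (adjusted p = 0.761, edgeR's quasi-likelihood test).

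Slc22a18, a family member annotated as an organic cation transporter, had a log2 fold change of 0.42 (interval 0.23 to 0.60, unadjusted p = 0.000604, adjusted p = 0.136, same test). It missed the fold-change threshold, as did Slc22a5, which encodes a carnitine transporter (log2 fold change 0.34, unadjusted p = 0.0400), and Slc22a23, with 94.0 ± 5.80 CPM in vehicle and 82.5 ± 3.58 CPM in esculetin livers (log2 fold change -0.19, unadjusted p = 0.0358, same test). With Slc22a28 and the low-level Slc22a26, whose value supports nothing, these were the genes of the list with an unadjusted p-value under 0.05.

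**Figure D3:**
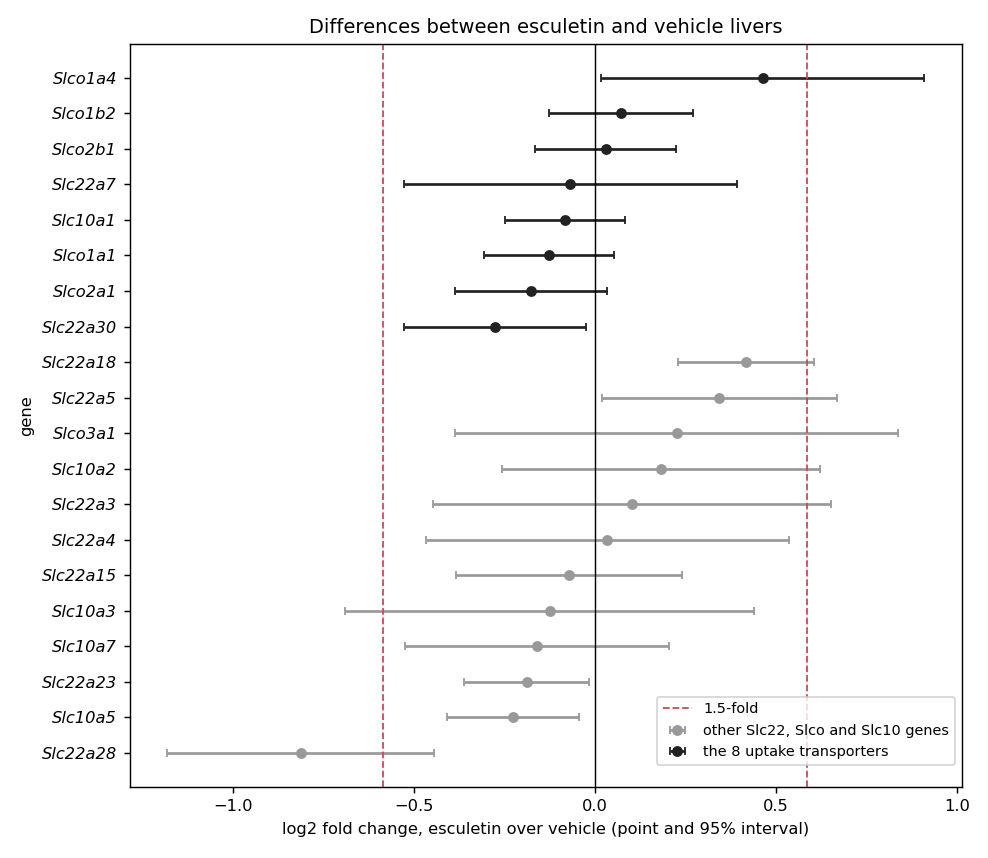
Log2 fold change (esculetin over vehicle) with its 95% interval for the 8 uptake transporters (black) and 12 other Slc22, Slco and Slc10 genes with a mean of at least 1 CPM in either group (grey), with dashed lines at 1.5-fold. The black intervals lie within 1.5-fold except that of Slco1a4, and Slc22a28 lies lowest at -0.81.

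Carriers for other solutes gave few calls as well. Of 16 genes for uptake of sugars, fatty acids, amino acids, nucleosides and other solutes by the hepatocyte, 15 were tested and 0 were called, with a median log2 fold change of 0.056. The amino acid transporter gene Slc38a4 was the highest of these, at 1779 ± 59.0 CPM in vehicle and 1672 ± 41.6 CPM in esculetin livers (adjusted p = 0.679, edgeR's quasi-likelihood test).

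On the export side, 1 of 10 tested genes for bile acid and conjugate export was called, and it was higher, against 1.37% of all genes called higher. This was Abcc3, whose product pumps glucuronides and bile acids from the hepatocyte back to blood. It had 110.3, 74.6 and 66.2 CPM in vehicle and 160.3, 209 and 195 CPM in esculetin libraries, without overlap, and a log2 fold change of 1.17 (standard error 0.18, adjusted p = 0.0771, same test). Abcb11, the canalicular bile salt export pump, had a log2 fold change of -0.12 (interval -0.39 to 0.15, adjusted p = 0.746, same test), and Abcc2, the highest of the list, had 601 ± 8.91 and 607 ± 46.6 CPM.

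Among 17 tested genes for regulators of uptake carriers, 2 were called, both higher, and 0 were called lower, against 1.37% and 1.76% of all genes. Nr0b2 encodes the small heterodimer partner, a corepressor that bile acids induce and that is known to hold down Slc10a1 transcription. It had 15.3, 21.2 and 11.8 CPM in vehicle and 33.1, 32.0 and 28.4 CPM in esculetin libraries, a log2 fold change of 0.95 (standard error 0.18, adjusted p = 0.132, same test). Slc10a1 in the same livers had the log2 fold change of -0.083 given above, and a link between Nr0b2 and Slc10a1 was not tested. Cebpb, which encodes C/EBPβ, had 30.3 ± 5.36 CPM in vehicle and 45.8 ± 7.01 CPM in esculetin livers (log2 fold change 0.60, adjusted p = 0.175, same test). Nr1i2, which encodes the pregnane X receptor, had a log2 fold change of 0.30 (adjusted p = 0.172), and Nr1i3, which encodes the constitutive androstane receptor, had 0.39 (adjusted p = 0.345, same test), both under 1.5-fold. Ghr, which encodes the growth hormone receptor and was the highest of the list, had 931 ± 20.0 CPM in vehicle and 838 ± 39.6 CPM in esculetin livers (adjusted p = 0.464, same test). Hnf4a, which encodes a nuclear receptor that drives many hepatocyte genes, had a log2 fold change of 0.11 (unadjusted p = 0.332, same test).

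Because a C/EBP gene was called, the 250 bases upstream of the annotated starts were searched for letters bound by C/EBP and by 3 other liver factors. RefSeq windows (GRCm38.p6) were matched for 7 of the 8 genes, 10 windows in all, without Slc22a7. The letters searched, on both strands, were TTGCNNAA for C/EBP, CAAAGTCCA for hepatocyte nuclear factor 4, GCGTG for the aryl hydrocarbon receptor and TGACNNNGC for NRF2. Of 32851 windows of this length, 9.56%, 0.384%, 28.2% and 10.2% held these letters in the order given. Matches were found in 2 windows, with 1 each, so no matches overlapped, and these windows are printed with the match in capitals. They are the second start of Slc10a1 (chr12:80968080-80968329, minus strand, C/EBP) and Slc22a30 (chr19:8405106-8405355, minus strand, C/EBP).
Slc10a1: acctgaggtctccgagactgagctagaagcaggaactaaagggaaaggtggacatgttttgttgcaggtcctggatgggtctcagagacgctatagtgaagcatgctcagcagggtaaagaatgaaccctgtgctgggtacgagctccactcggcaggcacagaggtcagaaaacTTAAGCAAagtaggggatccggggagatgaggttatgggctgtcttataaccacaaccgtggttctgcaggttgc
Slc22a30: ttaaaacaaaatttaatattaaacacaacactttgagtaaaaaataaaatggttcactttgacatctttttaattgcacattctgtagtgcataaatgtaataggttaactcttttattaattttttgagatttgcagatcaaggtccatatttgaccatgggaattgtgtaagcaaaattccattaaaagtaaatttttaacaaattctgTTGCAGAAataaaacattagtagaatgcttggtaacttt
Counted from the start, the matches lay at -75 to -68 in Slc10a1, where the letters read on the opposite strand, and at -39 to -32 in Slc22a30. The first start of Slc10a1 and the windows of Slco1a1, Slco1a4, Slco1b2, Slco2a1 and Slco2b1 held none of these letters.

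Genes with a profile most like that of each transporter were sought over the 6 libraries among 8982 genes with a mean of at least 5 CPM, by Pearson correlation of log2 CPM. With 6 libraries that all genes share, high values were found for every transporter, and they are given as a description. Slco1a4 was nearest to Serpina6, which encodes corticosteroid-binding globulin (r = 0.995, log2 fold change 0.49), and to Vnn3 (r = 0.988, log2 fold change 0.18). Slco1b2 was nearest to the carboxylesterase gene Ces2a (r = 0.980) and to Lmbr1l (r = 0.967). Slco1a1 was nearest to Zhx1 (r = 0.988) and Dhx40 (r = 0.980), and Slc10a1 to Zbtb33 (r = 0.991) and Csf1r (r = 0.990). For Slc22a30 these genes were Dnajc13 (r = 0.992) and Tubgcp4 (r = 0.989), and for Slc22a7 they were Srek1ip1 (r = 0.989) and St7 (r = 0.988). For Slco2a1 they were Tmem254 (r = 0.990) and Itga5 (r = 0.988), and for Slco2b1 they were Haus2 (r = 0.990) and Ubxn8 (r = 0.989). None of these was itself among the 8 transporters.

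Over the 8 genes, 3 had higher and 5 had lower point estimates with esculetin, and the median log2 fold change was -0.076, against -0.0080 for all genes tested. The median standard error of the 8 genes was 0.092 on the log2 scale, against 0.15 for all genes tested. The summed TPM of the 8 genes was 2785, 2819.6 and 2831 in vehicle and 2546, 2579 and 2906 in esculetin libraries, with the esculetin libraries on both sides of the vehicle range.

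**Figure D4:**
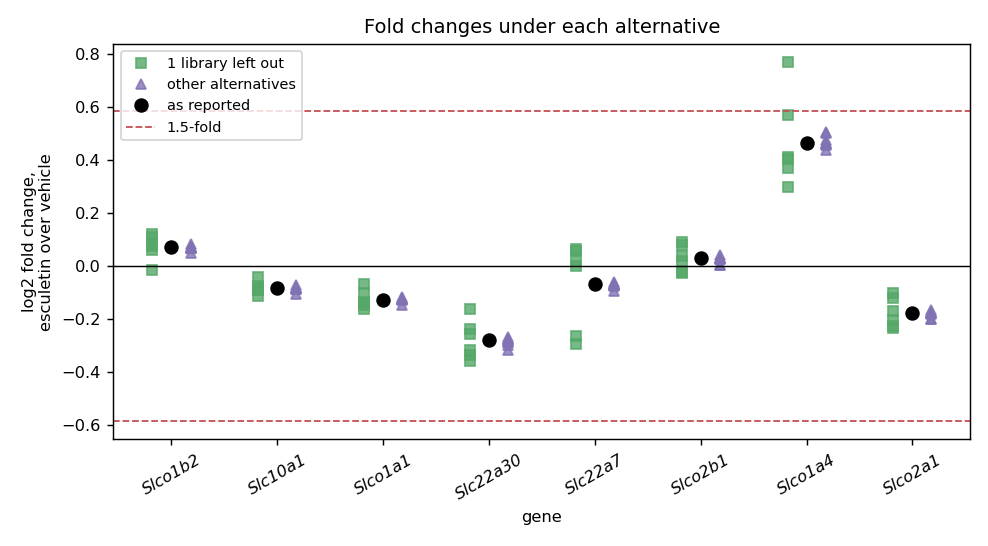
Log2 fold change (esculetin over vehicle) of each uptake transporter as reported (circles), with 1 library left out (squares) and under the other alternatives (triangles), with dashed lines at 1.5-fold. Only Slco1a4 passes 1.5-fold, at 0.77 without vehicle library 1, and Slc22a7, Slco1b2 and Slco2b1 cross 0.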

How the data were processed

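Liver RNA libraries (NEBNext Ultra RNA kit) were read from both ends, 150 bases each. The authors used HISAT 2.2.1 for alignment to GRCm39 and featureCounts for assignment to genes, and the deposited table holds raw counts. The annotation release, strand setting and treatment of reads mapping to several genes are not given in the sources used here. Libraries were grouped by sample name.

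Symbols, positions and exon lengths came from GENCODE M39 (GRCm39), which held 54749 of the 55357 identifiers. Promoter windows came from RefSeq (GRCm38.p6). After filterByExpr and TMM scaling, groups were compared in edgeR 4.0.16 (R 4.3.3) by quasi-likelihood, a procedure tested on simulated data. Standard errors are the log2 fold change over the square root of F, and 95% intervals use the t quantile at the test's degrees of freedom. TPM covers genes with a GENCODE length. Coding sequences were aligned with Biopython 1.88.

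The members and lists were chosen with earlier results of these data known. Of each list other than cell type markers, the called genes and the most highly expressed gene were named, and others after their values were seen. A few listed items are not reported here. Alternatives were DESeq2 1.42.0, limma-voom (limma 3.58.1), other scalings, other filters, other fold thresholds, thinning, a replicate block and leaving out each library. The sum of Slc22a30 and Slc22a28 was added after the data were seen. No library was a copy, since the smallest chi-square per gene between replicates was 24.2.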

Additional observations from a re-analysis of the deposited data

How the results depend on the processing

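With edgeR, DESeq2 and limma-voom alike, and with all other scalings and filters, thinning and the replicate block, 0 of the 8 uptake transporters passed the study's thresholds. Without a fold-change threshold 2 did, Slco1a4 and Slc22a30, against 11.9% of all genes tested. With 1 library left out, 0 to 1 did, the 1 being Slco1a4 (higher) without vehicle replicate 1. In that fit 1.66% of all genes were called higher and 1.68% lower. After adjustment 0 stayed below 0.05, or 1, Slco1a4, when no genes were left out for low counts. Groups without overlap were found for 2 genes (17.4% of all genes tested). They were found for 1 with DESeq2 size factors (17.5% of all), for 3 with total counts (17.4%) and for 3 after thinning (17.4%). With 1 library left out they were found for 2 to 4, the 4 without vehicle replicate 1 or esculetin replicate 2. With fewer libraries groups overlap less often, and the share of all genes tested was then 26.1% to 30.4%, and 27.8% and 27.2% without these replicates. With 1 library left out, the log2 fold change of Slc22a7 lay between -0.29 and 0.064, that of Slco2b1 between -0.025 and 0.090 and that of Slco1b2 between -0.013 and 0.12. These were the 3 genes that changed direction. Slco1a4 lay between 0.30 and 0.77 (0.44 and unadjusted p over 0.05 with total counts) and Slc22a30 between -0.36 and -0.16. Over all genes, 452 were called, 776 when low counts were kept, 1711 at any fold change and 217 above 2-fold. The replicate numbers mark different mice, and deviations of same-numbered libraries had correlations of -0.069, -0.011 and 0.0027. With the replicate block 0 uptake transporters were called and 0 passed after adjustment, at log2 fold changes of 0.50 for Slco1a4 and -0.28 for Slc22a30. The cause of these changes was not tested. With 3 pooled libraries a group, the widest intervals were those of Slc22a7 and Slco1a4, and the counts of Slc22a30 depend on how reads shared with Slc22a28 were assigned.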
